A study of Mus musculus with 15 samples.

Results

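The genes described here move calcium into the cytosol or out of its stores, or carry its signal onward, and were examined in the retina of mice that lack the cone cyclic nucleotide-gated channel. The set was given as a list of 45 gene symbols, and its members were all array probes that carry 1 of these symbols in the platform annotation. Of the 45 genes, 41 had a probe, with 72 probes in all, out of 16593 genes and 25697 probes on the array. A probe was kept if its detection p was under 0.01 on at least 5 arrays. This left 47 probes of 35 genes, against 13077 probes of 9097 genes over the whole array. Itpr1, Cacna1e, Cacnb3 and Stim2 had no probe named in the probe table.

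RNA came from the retinas of C57bl/6 mice at postnatal day 30, with both retinas of 1 animal pooled on each of 15 Illumina bead arrays. The control mice were Nrl-/-, and the 2 other groups were CNGA3-/-/Nrl-/- and CNGB3-/-/Nrl-/-, with 5 mice each. They are called the control, the Cnga3 double knockout and the Cngb3 double knockout. All 3 groups lacked Nrl, the transcription factor needed to make rods, so cone-like cells stand where rods would be and none of the groups is a wild type. A whole retina mixes many cell types, so fewer cells of a type and less RNA per cell cannot be told apart.

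In cones the cyclic nucleotide-gated channel, built from Cnga3 and Cngb3, admits calcium in darkness and closes in light. Calcium also enters the synaptic terminal through voltage-gated channels, is pumped into the endoplasmic reticulum by SERCA pumps, and leaves that store through inositol trisphosphate and ryanodine receptors. Stim proteins sense an emptied store and open Orai channels in the surface membrane, and the mitochondrial uniporter takes up calcium from the cytosol. Calmodulin binds the ion and switches on the calmodulin-dependent kinases and the phosphatase calcineurin.

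Some arrays stood apart, and their values are given beside the results they touch. Between 10302 probes (control replicate 3) and 13763 (Cnga3 double knockout replicate 2) were detected per array, and between 33 and 54 of the 72 member probes on the same arrays. The lens gene Cryaa read 4.28 and 6.60 in control replicates 1 and 3 and at least 12.42 on the 13 other arrays. For a marker list, the mean deviation of an array averages over the genes the distance from each gene's mean over the 15 arrays. It is in units of the SD of each gene, so it is not a log2 difference. The mean deviation of the pigment epithelium markers ran from -1.18 to -0.76 on 4 Cnga3 double knockout arrays and was 0.47 on the fifth, replicate 4, against -0.10 to 0.56 in the control and -0.13 to 0.82 in the Cngb3 double knockout. The mean deviation of the cone-like photoreceptor markers was -0.84 in Cnga3 double knockout replicate 4 and 0.03 to 0.44 in the 4 others. Cone markers such as Arr3, Opn1sw and Gnat2 were detected on all 15 arrays, and the Nrl probe on 0. Cngb3 fell by 2.08 in the Cngb3 double knockout (limma, adjusted p = 0.0108), while the 2 Cnga3 probes differed by -0.28 and -0.14 in the Cnga3 double knockout and were not called (limma, adjusted p = 0.396 and 0.598). The position of the Cnga3 probes on the gene is unknown here, so they do not check the labels.

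Few of the calcium genes changed in either mutant, and the share that did was close to that of all genes. Values are normalized log2 intensities, given as mean ± SD over 5 arrays. A difference was called at an adjusted p under 0.05 in limma over all 13077 kept probes, and the brightest kept probe stood for each gene. In the Cnga3 double knockout 2 of the 35 genes (5.71%) rose and 0 fell: Mcu, the pore of the mitochondrial calcium uniporter, and Pcp4, a small protein that speeds calcium exchange on calmodulin. Over all 9097 genes 7.29% were called in that comparison, 3.46% higher and 3.83% lower. In the Cngb3 double knockout 1 gene (2.86%) fell, the store-operated channel Orai1, and 0 rose, against 2.51% of all genes called, 1.23% higher and 1.28% lower. Counting every kept member probe, 4 of 47 rose in the Cnga3 double knockout, against 8.04% of all kept probes called, 4.61% higher: both probes of Mcu, the probe of Pcp4 and 1 of 3 probes of Ppp3ca, the catalytic alpha subunit of calcineurin. That Ppp3ca probe met the detection rule only through the Cnga3 double knockout arrays, so it had to read higher there and supports no count. In the Cngb3 double knockout 1 of the 47 was called, the fall of Orai1, against 2.68%, 1.25% lower.

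The median log2 fold change of the 35 genes was -0.05 in the Cnga3 and 0.004 in the Cngb3 double knockout, beside -0.03 and -0.01 over all genes. The Cnga3 double knockout had 16 members above 0 and 19 below, and the Cngb3 double knockout 18 and 17. Median sizes of change were 0.284 and 0.161 for members, against 0.219 and 0.194 for all genes. At an unadjusted p under 0.05 there were 11 members in the Cnga3 double knockout (7 higher, 4 lower) and 7 in the Cngb3 double knockout (4 higher, 3 lower), which are 31.4% and 20% of the 35, against 24.6% and 19.7% of all genes. Of the 7 higher in the Cnga3 double knockout, Cacna1d met the detection rule only through the arrays of that group, as did Orai2 among the 16 above 0. Both had to read higher there, so these counts support no excess of rises. Most differences were bounded. Over all 35 genes, called ones included, the 95% interval lay within a 2-fold change either way for 32 in each comparison. It lay within 1.5-fold for 11 genes in the Cnga3 and 18 in the Cngb3 comparison. For a probe mostly below the detection limit, such as that of Orai2, the interval bounds the reading and not the level of the gene. The number of arrays, 5 a group, limits this precision. Since both comparisons use the same 5 control arrays, an error in the controls moves both mutants alike.

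**Figure D1:**
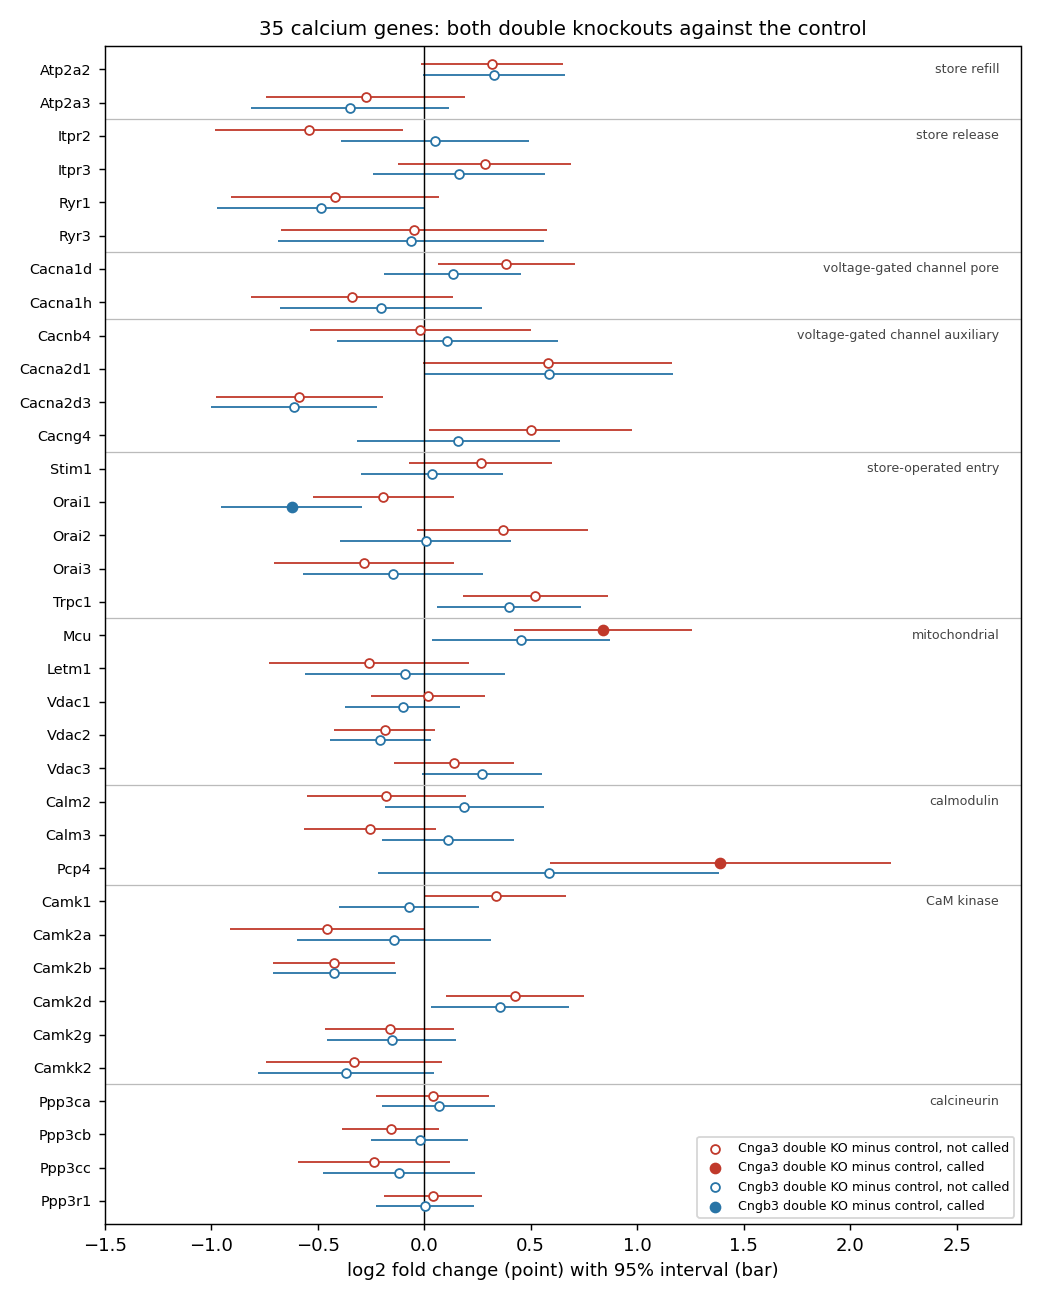
Log2 fold change (x axis) of the brightest kept probe of each of the 35 genes (y axis, ordered by role), for the Cnga3 (red) and Cngb3 (blue) double knockout minus the control, n = 5 arrays a group. Bars are 95% intervals and filled points are called at an adjusted p under 0.05; Mcu and Pcp4 are filled in red and Orai1 in blue, and most other intervals cross 0.

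Promoter sequences are shown for Mcu, Pcp4 and Orai1, the genes called on their brightest probe, since they are the sequence from which the changed transcripts start. Each is the 250 bases before the RefSeq transcription start in GRCm38.p6, 5′ to 3′ on the strand of the gene. Capitals mark matches, on either strand, to 4 short motifs: CCAAT (read by NF-Y), GGGCGG (read by Sp factors), TGACG (the core of the calcium-responsive CREB element) and TAATCC (read by the photoreceptor factor Crx). The promoter of Mcu lies at chr10:59616693-59616942 on the minus strand, that of Pcp4 at chr16:96467356-96467605 on the plus strand and that of Orai1 at chr5:123014824-123015073 on the plus strand.
Mcu: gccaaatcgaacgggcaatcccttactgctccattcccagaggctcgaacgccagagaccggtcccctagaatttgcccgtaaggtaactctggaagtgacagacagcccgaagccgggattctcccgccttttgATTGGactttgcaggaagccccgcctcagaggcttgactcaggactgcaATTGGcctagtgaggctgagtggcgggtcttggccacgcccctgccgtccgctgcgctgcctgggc
Pcp4: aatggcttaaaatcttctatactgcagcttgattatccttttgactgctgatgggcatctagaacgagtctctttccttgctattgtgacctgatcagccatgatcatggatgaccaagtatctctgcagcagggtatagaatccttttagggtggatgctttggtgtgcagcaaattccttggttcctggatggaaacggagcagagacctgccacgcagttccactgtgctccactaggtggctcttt
Orai1: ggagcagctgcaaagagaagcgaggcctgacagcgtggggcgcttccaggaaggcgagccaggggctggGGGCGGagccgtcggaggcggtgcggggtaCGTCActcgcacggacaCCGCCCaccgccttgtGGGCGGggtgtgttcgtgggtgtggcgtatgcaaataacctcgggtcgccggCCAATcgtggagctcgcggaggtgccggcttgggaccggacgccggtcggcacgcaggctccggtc
The Mcu promoter has 60.8% G and C and 2 CCAAT matches. The Pcp4 promoter has 46.8% and none of the 4 motifs. The Orai1 promoter has 70.8%, with 3 GGGCGG matches, 1 CCAAT match and 1 TGACG match. A match of letters is a description and not a bound site.

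RefSeq promoters were at hand for 24 of the 35 member genes with a kept probe, 28 promoters in all. TGACG was found in 9 of the 28 (32.1%), against 17.8% of all 32851 promoters, GGGCGG in 20 (71.4%, against 32.7%), CCAAT in 8 (28.6%, against 33.8%) and TAATCC in 0 (against 6.25%). The member promoters were limited to genes with a kept probe, while the comparison took all 32851 promoters, with or without one. The sets are therefore unlike, and the shares do not show a difference particular to the members. No test was made of these shares.

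The genes that fill and empty the endoplasmic reticulum store were not called. Atp2a2, which encodes the SERCA2 pump, read 11.80 ± 0.285 in the control, 12.12 ± 0.307 in the Cnga3 and 12.13 ± 0.0353 in the Cngb3 double knockout, differences of 0.32 and 0.33 (limma, adjusted p = 0.214 and 0.256). Its other probe differed by -0.02 and 0.07. Atp2a3, the SERCA3 pump, differed by -0.27 and -0.35 and was not called.

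Among the release channels, Itpr2, an inositol trisphosphate receptor, read 6.59 ± 0.351 in the control, 6.05 ± 0.407 in the Cnga3 and 6.64 ± 0.291 in the Cngb3 double knockout. The difference of -0.54 in the Cnga3 double knockout was not called (limma, adjusted p = 0.116), and the ranges overlapped. Itpr3 differed by 0.28 and 0.16, and the ryanodine receptor Ryr3 by -0.05 and -0.06. Ryr1, another ryanodine receptor, gave opposite signs on its 2 kept probes in the Cnga3 double knockout, -0.42 on the brighter and 0.40 on the dimmer. These were detected on 8 and 5 of the 15 arrays, and neither was called in any comparison. Ryr2 had no kept probe.

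Of the voltage-gated channels, 3 with no kept probe are the pore genes Cacna1a (P/Q type), Cacna1b (N type) and Cacna1c (L type), and Cacnb1, a beta subunit, had none either. Cacna1d, an L-type pore, was detected on 6 arrays, of which 4 were in the Cnga3 double knockout. It met the detection rule only through that group. It read 4.98 ± 0.241, 5.36 ± 0.215 and 5.11 ± 0.234 in the control, Cnga3 and Cngb3 groups (0.39, adjusted p = 0.123, and 0.13, adjusted p = 0.653, limma). Cacna1h, a low-voltage T-type pore, was bright on all 15 arrays. Its 5 Cngb3 double knockout values, at most 11.777, lay just below the 5 control values, at least 11.784, and the difference of -0.20 was not called (limma, adjusted p = 0.646). In the Cnga3 double knockout 4 arrays read 11.52 to 11.99 and replicate 4 read 10.44, and the difference of -0.34 was not called (limma, adjusted p = 0.354).

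The auxiliary subunits set where the pores go and how they gate. Cacna2d3, an alpha2delta subunit, had nearly the same difference in both mutants: 10.41 ± 0.385 in the control, 9.82 ± 0.256 in the Cnga3 and 9.80 ± 0.244 in the Cngb3 double knockout (-0.59 and -0.61; limma, adjusted p = 0.0598 and 0.0874). Neither was called. The lowest control, replicate 1 at 9.76, lay inside the range of both mutants. Without control replicates 1 and 3, the arrays low in lens RNA, Cacna2d3 was called in both (-0.75, adjusted p = 0.0155, and -0.77, adjusted p = 0.0183, limma). That fit drops the lowest control. In it 10.1% of all kept probes were called in the Cnga3 and 6.49% in the Cngb3 double knockout, against 8.04% and 2.68% in the main fit.

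Cacna2d1, another alpha2delta subunit, differed by 0.58 and 0.59 and was not called (limma, adjusted p = 0.196 and 0.244). Cacng4, of the gamma family that also serves glutamate receptors, differed by 0.50 and 0.16. Cacnb4, a beta subunit, differed by -0.02 and 0.11 on its brighter probe. Its dimmer probe was detected on 0 control arrays and on 3 arrays of each mutant, so it has only a bound in the control, and it was not called.

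Store-operated entry held the member that fell in the Cngb3 double knockout. Orai1, the pore that opens when the store is empty, read 7.88, 8.11, 8.65, 8.03 and 8.37 in control replicates 1 to 5. In the Cnga3 double knockout it read 7.88, 7.89, 8.23, 8.23 and 7.86, and in the Cngb3 double knockout 7.50, 7.84, 7.48, 7.36 and 7.75. All 5 Cngb3 double knockout values lay below the lowest control and below the lowest Cnga3 double knockout value, while control and Cnga3 values overlapped. The means were 8.21 ± 0.305, 8.02 ± 0.192 and 7.59 ± 0.202. Orai1 fell 1.54-fold in the Cngb3 double knockout (log2 fold change -0.62, SE 0.156, 95% interval -0.95 to -0.29, limma adjusted p = 0.0414). In the Cnga3 double knockout the difference was -0.19 (adjusted p = 0.459, interval -0.52 to 0.14, limma). The Orai1 call was lost in 12 of the 15 fits that left out 1 array, the highest adjusted p being 0.119 (Cngb3 double knockout replicate 4 omitted), and over these fits the difference ran from -0.71 to -0.51.

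None of the related genes was called. Orai3 differed by -0.28 and -0.15, and Orai2 was detected on 0 control, 4 Cnga3 and 1 Cngb3 double knockout arrays, so its level there has only a bound. Orai2 was thus kept only through the Cnga3 double knockout arrays. Stim1, the sensor that opens Orai channels, differed by 0.27 and 0.04 and was not called. Trpc1, a cation channel linked to store-operated entry, read higher on all 5 Cnga3 double knockout arrays (5.53 to 5.86) than on any control (4.76 to 5.43), yet the difference of 0.52 was not called (limma, adjusted p = 0.0558). Its probe was detected on 1 control array. Trpc1 differed by 0.40 in the Cngb3 double knockout (adjusted p = 0.172, limma), and its second probe by 0.37 and 0.51 in the Cnga3 and Cngb3 double knockout.

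The mitochondrial uniporter gene rose in the Cnga3 double knockout. Mcu's brighter probe read 6.21, 5.44, 6.24, 5.21 and 5.55 in control replicates 1 to 5. It read 6.63, 6.42, 6.52, 6.71 and 6.56 in the Cnga3 double knockout and 5.91, 6.40, 5.80, 6.44 and 6.37 in the Cngb3 double knockout. Each Cnga3 double knockout value was above the highest control, while the Cngb3 double knockout values overlapped both groups, with 3 of the 5 above the highest control and 2 inside the control range. The means were 5.73 ± 0.469, 6.57 ± 0.111 and 6.19 ± 0.306. Mcu rose 1.79-fold in the Cnga3 double knockout (log2 fold change 0.84, SE 0.198, 95% interval 0.42 to 1.26, limma adjusted p = 0.0179). This probe was detected on 14 of the 15 arrays. Control replicate 4, at 5.21, lay below the lowest value detected on that array, 5.31. The fold of Mcu therefore includes a control value that is only a bound. The difference of 0.46 in the Cngb3 double knockout was not called (limma, adjusted p = 0.205, interval 0.04 to 0.87).

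The dimmer Mcu probe read 5.64, 4.52, 5.07, 4.87 and 4.91 in the control. It read 5.52, 6.05, 5.88, 5.88 and 6.20 in the Cnga3 and 5.82, 4.81, 5.71, 5.68 and 5.61 in the Cngb3 double knockout. Control replicate 1 lay above the lowest Cnga3 double knockout array, so these groups overlapped, and the other 4 controls lay below all 5. This probe was detected on 1 control, 5 Cnga3 and 4 Cngb3 double knockout arrays. With 4 of 5 controls below the detection limit no fold is given. The fitted log2 difference in the Cnga3 double knockout was 0.91 (SE 0.214, limma adjusted p = 0.018), and the probe in the Cngb3 double knockout differed by 0.53 (adjusted p = 0.175). Without control replicate 2 the adjusted p was 0.0506 on the brighter and 0.0513 on the dimmer probe, and without Cnga3 double knockout replicate 5 it was 0.052 on the dimmer. Without control replicates 1 and 3, the 2 highest controls on the brighter probe, that probe was called in both mutants (1.17, adjusted p = 0.000694, and 0.79, adjusted p = 0.0119, limma). In that fit 10.1% and 6.49% of all kept probes were called, against 8.04% and 2.68% in the main fit.

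The other mitochondrial members had smaller differences. Letm1, an ion exchanger of the inner membrane, differed by -0.26 and -0.09, and its lowest array was Cnga3 double knockout replicate 4. The outer-membrane channels Vdac1, Vdac2 and Vdac3 differed by 0.02, -0.19 and 0.14 in the Cnga3 and by -0.10, -0.21 and 0.27 in the Cngb3 double knockout. None of these 4 genes was called, with limma adjusted p of at least 0.263.

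Pcp4 had the largest change of the 35 members. It read 6.46, 6.79, 4.92, 6.84 and 6.43 in control replicates 1 to 5. It read 7.05, 7.49, 7.47, 8.53 and 7.84 in the Cnga3 and 5.88, 7.07, 6.55, 7.12 and 7.75 in the Cngb3 double knockout. The Cnga3 double knockout arrays were all above the highest control, while the Cngb3 double knockout arrays spread from within the control range to the level of the Cnga3 double knockout. The means were 6.29 ± 0.788, 7.68 ± 0.554 and 6.87 ± 0.701. Pcp4 rose 2.62-fold in the Cnga3 double knockout (log2 fold change 1.39, SE 0.379, 95% interval 0.59 to 2.19, limma adjusted p = 0.0341). Control replicate 3, at 4.92, lay below the lowest value detected on that array, 6.01. The fold therefore includes a control value that is only a bound. The difference of 0.59 in the Cngb3 double knockout had an interval of -0.22 to 1.39 and was not called (limma, adjusted p = 0.399).

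The Pcp4 call rested on single arrays. It was lost without control replicate 3 (1.05, adjusted p = 0.0567), control replicate 5 (adjusted p = 0.0544), or Cnga3 double knockout replicate 2 (0.0587), 4 (1.18, 0.0682) or 5 (0.0783). Pcp4 is also known from amacrine cells. The mean deviation of the 11 kept amacrine markers, of 12 listed, lay between -1.31 and 0.24 in the control, -0.27 and 0.74 in the Cnga3 and -0.15 and 0.25 in the Cngb3 double knockout. Of these 11, 1 was called higher in the Cnga3 double knockout, with a median difference of 0.37, and their log2 summed level was 14.4 to 14.7 in the control and 14.5 to 14.9 there. The 4 kept horizontal cell markers, of 6 listed, had mean deviations of -0.63 to 0.25 in the control, 0.29 to 1.36 in the Cnga3 and -0.87 to 0.19 in the Cngb3 double knockout, with 1 called higher in the Cnga3 double knockout. The part of these cells in the result was not tested.

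Calmodulin itself is made by several genes, of which Calm2 and Calm3 are members. Calm2 read 11.16 ± 0.315 in the control, 10.98 ± 0.34 in the Cnga3 and 11.35 ± 0.166 in the Cngb3 double knockout. Calm3 read 12.33 ± 0.317, 12.08 ± 0.175 and 12.44 ± 0.0959 in the same order. Neither was called in any comparison of the main fit. With array weights both were called lower in the Cnga3 than in the Cngb3 double knockout (adjusted p = 0.0393 and 0.0453, limma), where 8.95% of all kept probes were called.

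**Figure D2:**
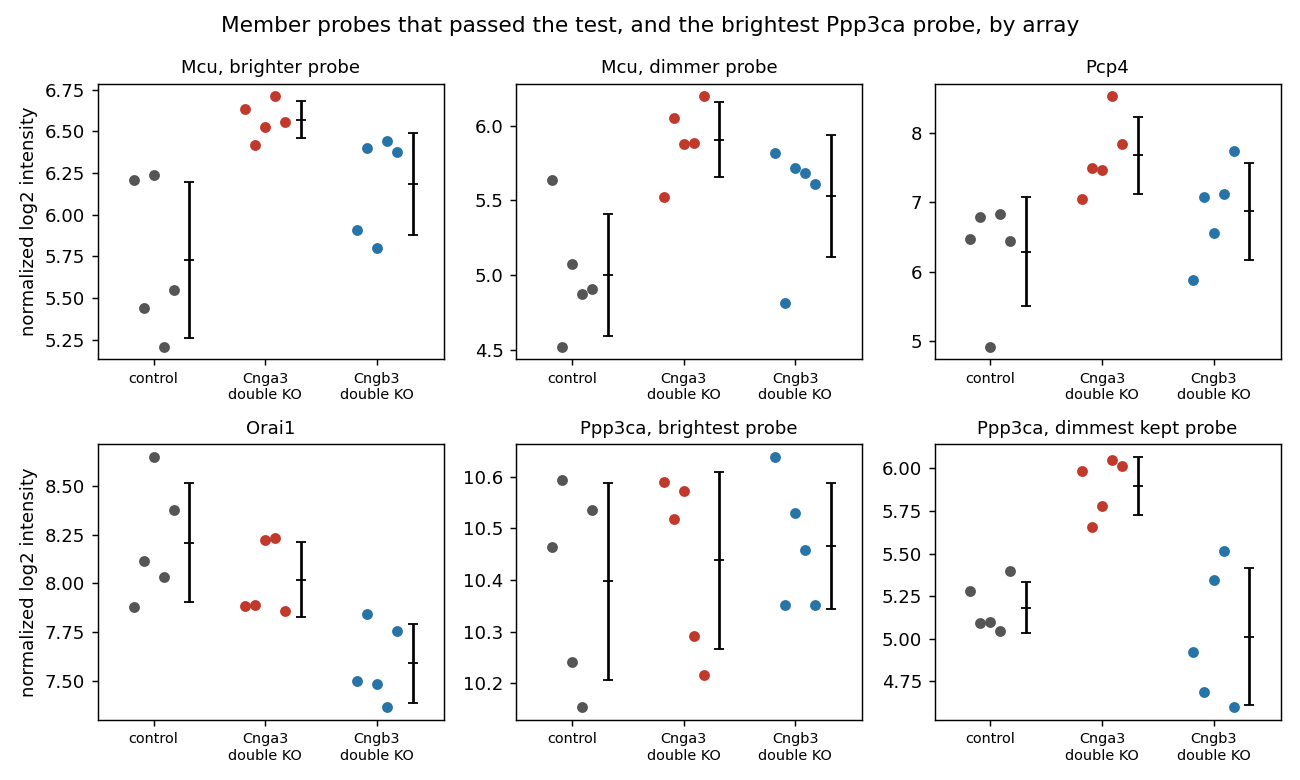
Normalized log2 intensity (y axis, its range differing between panels) of the 5 member probes called in a comparison and of the brightest Ppp3ca probe, 1 point per array; the mean and SD of 5 arrays stand beside the points. The Cnga3 double knockout points of Mcu's brighter probe, Pcp4 and the dimmest Ppp3ca probe lie above all control points, those of Orai1 in the Cngb3 double knockout lie below them, and the brightest Ppp3ca probe shows 3 overlapping groups.

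Calmodulin-dependent kinases were not called, and the isoforms of kinase II pointed in different directions. Camk2b, the beta isoform, read 12.84 to 12.98 in the control, 12.09 to 12.82 in the Cnga3 and 12.33 to 12.60 in the Cngb3 double knockout, so that both mutants lay below every control. The differences of -0.42 in each were not called (limma, adjusted p = 0.0633 and 0.104). Camk2g, the gamma isoform, gave the same picture on its dimmer probe: 6.65 to 7.80 in the control, 6.32 to 6.45 in the Cnga3 and 6.34 to 6.60 in the Cngb3 double knockout (-0.56 and -0.50; limma, adjusted p = 0.0648 and 0.135). The high end of the control range was replicate 3 alone, at 7.80, and the brighter Camk2g probe differed by -0.16 and -0.15.

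Camk2d, the delta isoform, had 4 kept probes that all pointed up in both mutants. The brightest differed by 0.43 in the Cnga3 (limma, adjusted p = 0.0921) and 0.36 in the Cngb3 double knockout (adjusted p = 0.204), and the others by 0.08 to 0.56 and by 0.11 to 0.44. Camk2a, the alpha isoform of forebrain neurons, differed by -0.46 and -0.14. Camk1 differed by 0.34 and -0.07. The upstream kinase Camkk2 differed by -0.33 and -0.37 on its brighter probe and by 0.31 and 0.22 on its dimmer one. Camk4 had no kept probe.

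Calcineurin removes phosphate from targets such as the NFAT factors when calcium rises. On their brightest probes its catalytic subunits Ppp3ca, Ppp3cb and Ppp3cc and its regulatory subunit Ppp3r1 differed by -0.23 to 0.04 in the Cnga3 and by -0.12 to 0.07 in the Cngb3 double knockout, and none was called. The dimmest of 3 kept Ppp3ca probes read 5.28, 5.09, 5.10, 5.04 and 5.40 in the control. It read 5.98, 5.65, 5.78, 6.05 and 6.01 in the Cnga3 and 4.92, 4.68, 5.34, 5.51 and 4.60 in the Cngb3 double knockout. Its 5 Cnga3 double knockout values lay above all 10 others, and it was detected on 5 arrays there and on 1 in each other group.

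The probe was kept only through the Cnga3 double knockout arrays, and with 4 of 5 arrays of each other group below the detection limit no fold is given. The fitted log2 difference from the control was 0.71 (means 5.18 ± 0.151 and 5.90 ± 0.171, SE 0.169, limma adjusted p = 0.0179). Its call stayed in every fit that left out 1 array, with an adjusted p of up to 0.0474. The brightest Ppp3ca probe, in contrast, read 10.40 ± 0.19 in the control and 10.44 ± 0.172 in the Cnga3 double knockout (0.04, adjusted p = 0.864), and the third probe differed by 0.03 (adjusted p = 0.921). With the probe positions unknown here, whether the 3 report different transcripts cannot be told.

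**Figure D3:**
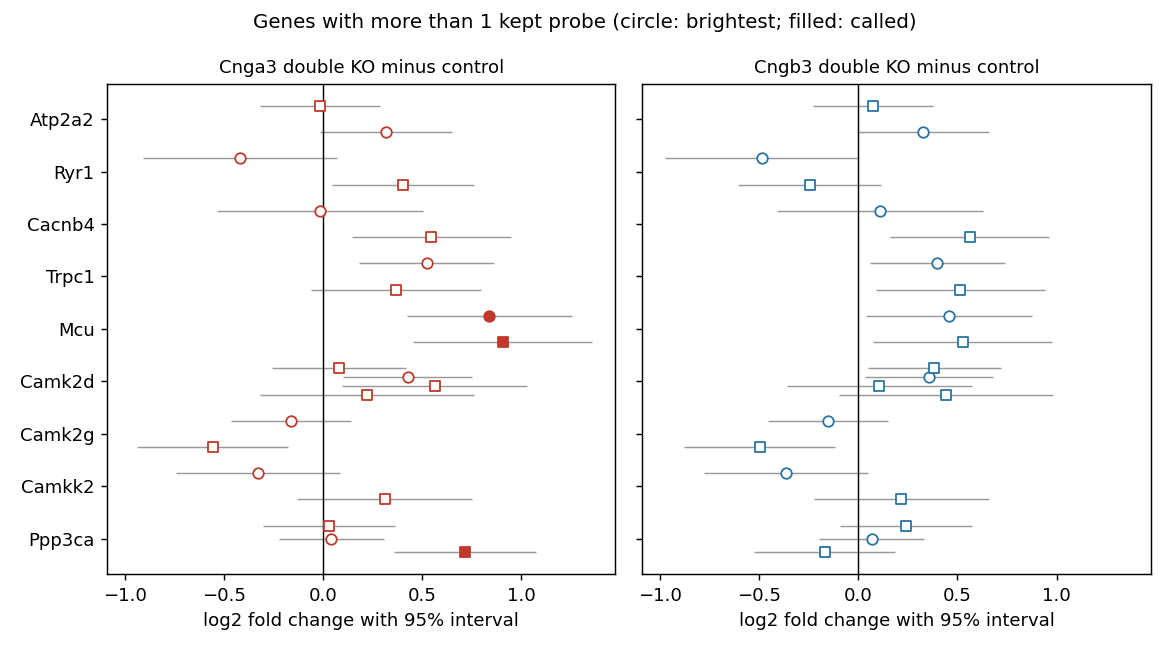
Log2 fold change with 95% interval (x axis) of each of the 21 kept probes of the 9 genes with more than 1, for the Cnga3 (left, red) and Cngb3 (right, blue) double knockout minus the control, 5 arrays a group; circles mark the brightest probe and filled marks are called. The 2 Mcu probes lie together, the Ppp3ca probes do not, and Ryr1 and Camkk2 are among the genes with probes on both sides of 0 in the left panel.

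Genes with more than 1 kept probe show how far 1 probe speaks for a gene. Probes of 5 of these 9 genes all pointed one way in the Cnga3 double knockout, and of 7 genes in the Cngb3 double knockout. Mcu, Trpc1, Camk2d and Camk2g did so in both mutants. Atp2a2, Ryr1, Cacnb4 and Camkk2 had probes on both sides of 0 in the Cnga3 double knockout, and Camkk2 and Ppp3ca in the Cngb3 double knockout.

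Set directly against each other, the mutants differed in none of the 35 genes on the brightest probe (0 called by limma, 5 at an unadjusted p under 0.05, against 0.418% of all genes called and 14.4% at an unadjusted p under 0.05). The 5 were Pcp4 (0.81, adjusted p = 0.342), Orai1 (0.43, adjusted p = 0.226) and Camk1 (0.41, adjusted p = 0.248), higher in the Cnga3 double knockout, and Itpr2 (-0.59, adjusted p = 0.215) and Calm3 (-0.37, adjusted p = 0.262), lower there. The values of Orai1 and of Calm3 did not overlap between the mutants, against 5.09% of all genes, 2.35% higher and 2.74% lower in the Cnga3 double knockout. In this fit the changes of Mcu, Pcp4 and Orai1 are therefore not shown to differ between the mutants. Orai1 was called between them with median centring of the arrays (0.59, or 0.49 relative to the shift of all probes, adjusted p = 0.0285, limma), where 1.54% of all kept probes were called. With array weights 4 of the 35 genes were called, against 8.95% of all kept probes. They were Orai1 (0.43, adjusted p = 0.0321), higher in the Cnga3 double knockout, and Itpr2 (-0.52, adjusted p = 0.0386), Calm2 (-0.49, adjusted p = 0.0393) and Calm3 (-0.35, adjusted p = 0.0453), lower there (limma). In the main fit 1 of the 47 kept member probes was called, against 0.405% of all kept probes, 0.184% higher. It was the dimmest Ppp3ca probe (5.90 ± 0.171 against 5.01 ± 0.402, fitted log2 difference 0.88, SE 0.169, limma adjusted p = 0.0303), which was detected on 1 Cngb3 double knockout array and kept only through the Cnga3 double knockout, so the call supports no difference between the mutants in this gene. That call was lost in 6 of 15 fits that left out 1 array, with an adjusted p of up to 0.106. The 95% interval lay within a 2-fold difference for 33 of the 35 genes.

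Of the 35 genes, 3 had values wholly above the control and 1 wholly below it in the Cnga3 double knockout, where 6.34% of all genes did not overlap (2.51% above, 3.84% below). They were Mcu, Pcp4 and Trpc1 above, and Camk2b below. Camk2d lay wholly above the control in the Cngb3 double knockout, and Orai1, Cacna1h and Camk2b wholly below, against 6.94% of all genes (2.85% above, 4.09% below). Spread within a group was largest in the control, with a median SD of 0.315 over the 35 genes, against 0.254 in the Cnga3 and 0.174 in the Cngb3 double knockout. No such value was taken over all genes, so this is not shown to be particular to the members.

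Single arrays took the extremes more often than others among the 35 genes, and the same was not counted over all genes. Cnga3 double knockout replicate 4 was the lowest of its group in 18 of the 35 genes and the highest in 9. Control replicate 3 was the highest control in 14 genes and the lowest in 5, and control replicate 4 the lowest in 12. Without control replicates 1 and 3 and Cnga3 double knockout replicate 4 together, the calls among members were 6 rises and 2 falls in the Cnga3 double knockout, and 6 genes in the Cngb3 double knockout. The count over all kept probes also rose, from 1051 to 1874 and from 351 to 1698. Mcu was called in both mutants in that fit, and Pcp4 in neither (0.78, adjusted p = 0.136, in the Cnga3 double knockout, limma).

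**Figure D4:**
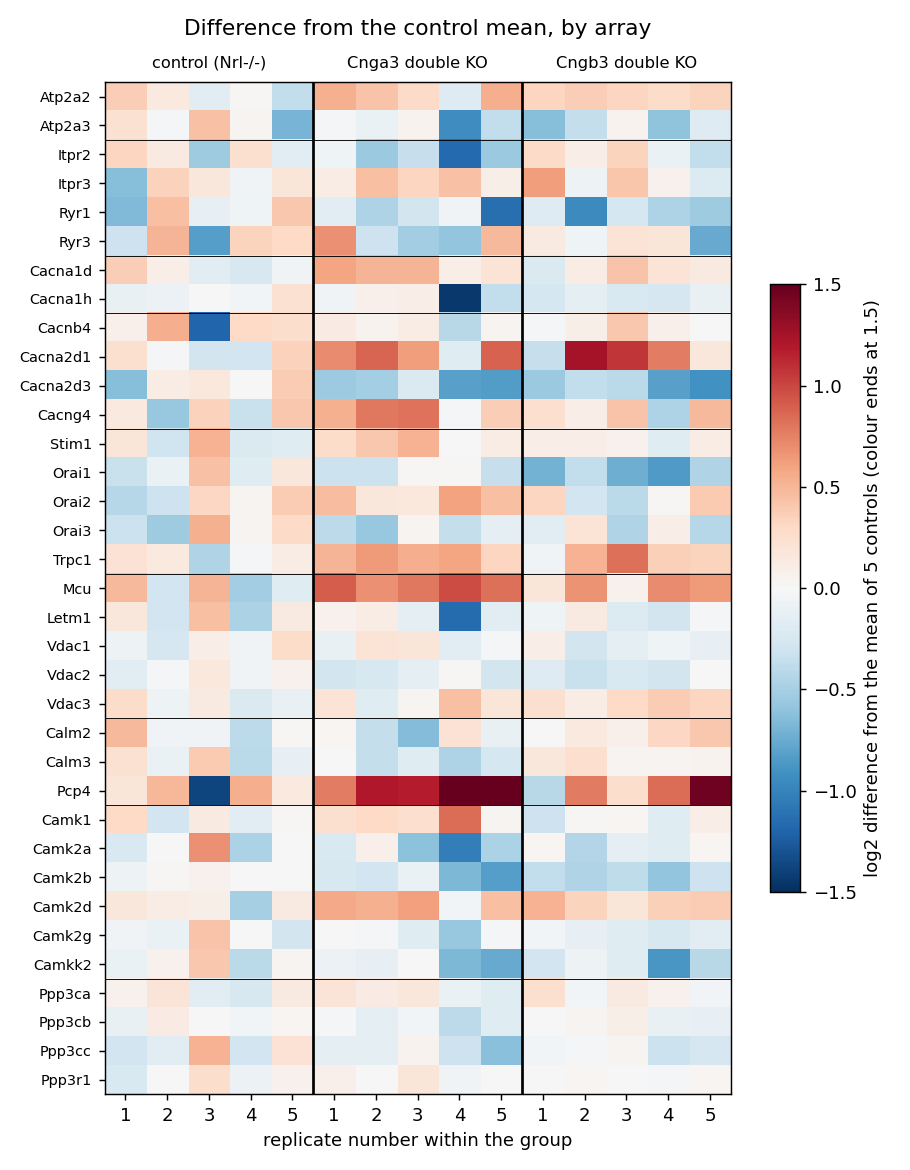
Difference of each array from the mean of the 5 controls (colour, log2 scale, ends at 1.5) for the brightest kept probe of the 35 genes (rows, ordered by role), with arrays as columns by group and replicate number. Pcp4 and Mcu are red across the Cnga3 double knockout and Orai1 is blue across the Cngb3 double knockout, while replicate 4 of the Cnga3 double knockout is blue in several rows where its group is not, such as Cacna1h and Letm1.

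The scale of the arrays also matters to the direction of small changes. Centring each array on its median in place of quantile normalization raised the median of all kept probes by 0.12 in the Cnga3 double knockout, and rises went as a share of called probes from 57.4 to 83.4%. In the direct comparison it raised the median by 0.10 and that share from 45.3 to 85.1%. Relative to this shift Mcu differed by 0.89 and Pcp4 by 1.34 in the Cnga3 double knockout, and Orai1 by -0.63 in the Cngb3 double knockout, and all 3 were called. In the deposited values, which were given no background correction here, these 3 genes were called with smaller differences, 0.31 for Mcu, 0.71 for Pcp4 and -0.42 for Orai1 (limma, adjusted p = 0.0232, 0.028 and 0.0374). The dimmest Ppp3ca probe was called against the control there (0.21, adjusted p = 0.0457) and not between the mutants (0.25, adjusted p = 0.0804). Cacna2d3 (-0.53, adjusted p = 0.0444) and Camk2b (-0.42, adjusted p = 0.0319) were also called there, as falls in the Cnga3 double knockout.

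Other genes of the calcium pathway, outside the 45, were read from a list of 80 symbols, of which 60 had a probe and 45 a kept one. This list was chosen with earlier results of these data known, so its shares of called genes do not show an excess. In the Cnga3 double knockout 5 of the 45 (11.1%) rose and 0 fell, against 7.29% of all genes called, with a list median of 0.06. The split was 5 higher and 2 lower in the deposited values, and 2 higher and 3 lower with the pigment epithelium markers as a covariate. In the Cngb3 double knockout 3 (6.67%) rose and 0 fell, against 2.51%, with a median of 0.03. Of the genes called, Atp2b1, Slc8a3 and Slc24a1 carry calcium out of the cell. Slc24a1, the sodium-calcium-potassium exchanger of rod outer segments, read 6.31 ± 0.176 in the control, 7.01 ± 0.431 in the Cnga3 and 8.14 ± 0.261 in the Cngb3 double knockout. It rose by 0.70 and 1.83 (limma, adjusted p = 0.0309 and 4.11e-05), and the mutants differed in it by -1.13 (limma, adjusted p = 0.0108).

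Atp2b1, a plasma membrane calcium pump, rose by 1.09 and 1.10 (limma, adjusted p = 0.00675 and 0.0121) and Slc8a3, a sodium-calcium exchanger, by 0.99 and 1.02 (limma, adjusted p = 0.0124 and 0.0193). Camk1d, a calmodulin-dependent kinase outside the set, rose by 0.95 in the Cnga3 double knockout (limma, adjusted p = 0.0215), where its replicate 4 read 6.28 and the other 4 arrays 7.31 to 7.34. Cabp4, a calcium-binding protein that tunes the channel of the photoreceptor synapse, read 9.01 ± 0.415, 9.59 ± 0.0963 and 8.66 ± 0.192 in the control, Cnga3 and Cngb3 groups. It was higher in the Cnga3 than in the Cngb3 double knockout by 0.93 (limma, adjusted p = 0.0245). The call of Cabp4 against the control in the Cnga3 double knockout (0.58, limma, adjusted p = 0.0455) was lost in 13 of the 15 fits without 1 array. The adjusted p reached 0.0963. That of Slc24a1 was lost in 4 such fits and that of Camk1d in 2, without replicate 2 (adjusted p = 0.0537) or 5 (0.0583) of that group. With the covariate Slc24a1, Camk1d and Cabp4 lost these calls (adjusted p = 0.292, 0.131 and 0.148), as did Slc8a3 (0.0918). Cabp4 lost its call between the mutants in 6 fits without 1 array, with an adjusted p of up to 0.0799. Slc8a3 lost its call in the Cngb3 double knockout in 3, with an adjusted p of up to 0.0535. Slc24a1 and Cabp4 were the 2 genes of this list called between the mutants (4.44%, against 0.418%). The share has the same limit, since the list was chosen with earlier results known.

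The pore of the photoreceptor synapse channel, Cacna1f, and its beta subunit Cacnb2 belong to that list and are named here after their values were seen. Cacna1f read 9.08 ± 0.211 in the control, 8.33 ± 0.698 in the Cnga3 and 8.67 ± 0.127 in the Cngb3 double knockout and was not called (-0.75 and -0.41; limma, adjusted p = 0.069 and 0.364). Cacnb2 differed by -0.03 and 0.02. The calcineurin inhibitors Rcan1 and Rcan2, named in the same way, differed by -0.30 and -0.51 in the Cnga3 and by -0.28 each in the Cngb3 double knockout and were not called in the main fit. Rcan2 was called lower in the Cnga3 double knockout in the deposited values (-0.43, adjusted p = 0.0348, limma) and with the pigment epithelium covariate (-0.84, adjusted p = 0.0057). With that covariate Cacna1f was called lower there too (-1.31, adjusted p = 0.00545, limma). Both were then also called lower than in the Cngb3 double knockout (Cacna1f -1.06, adjusted p = 0.0421, and Rcan2 -0.65, adjusted p = 0.0485, limma).

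The probes below the detection rule set a limit to these results. Cacna1a, Cacna1b, Cacna1c, Cacnb1, Camk4 and Ryr2 have 12 probes between them, of which 11 were detected on 0 arrays and 1, of Cacnb1, on 4. In all, 25 member probes were not kept, 17 of them detected on 0 arrays and 8 on 1 to 4. A level under the detection limit of a whole-retina array does not show that a gene is silent in a rare cell type. Of the 35 genes read here, 27 were detected on all 15 arrays by their brightest probe and 8 on 5 to 14.

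Pigment epithelium markers moved with the Cnga3 double knockout. Of 12 listed, 10 were kept, and 2 fell there (0 rose), with a median difference of -0.86 in the Cnga3 and 0.17 in the Cngb3 double knockout. Their log2 summed level was 14.2 to 14.8 in the control, 13.7 to 14.9 in the Cnga3 and 14.5 to 15.1 in the Cngb3 double knockout. With the mean deviation of these markers as a covariate, Mcu was still called in the Cnga3 double knockout (0.92, adjusted p = 0.0324, limma) and Pcp4 was not (adjusted p = 0.083), while Cacna1h (-0.94, adjusted p = 0.00683), Camk2b (-0.59, adjusted p = 0.0298) and Camk1 (0.58, adjusted p = 0.0479) were. In that fit 13.3% of all kept probes were called, against 8.04% in the main fit. The covariate nearly follows the group, at -1.18 to -0.76 on 4 Cnga3 double knockout arrays and -0.13 or above on all others. The exception in that group is replicate 4 (0.47), also the low array of Cacna1h. The fit therefore cannot cleanly separate the markers from the group. The 12 lens genes had a median difference of 2.75 in the Cnga3 and 3.05 in the Cngb3 double knockout, with control replicates 1 and 3 low as given for Cryaa, and 0 of the 12 were called (limma; 9 and 12 at an unadjusted p under 0.05).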

How the data were processed

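The sample titles gave groups and replicate numbers, with 1 animal per array. The submitters' processing notes name GenomeStudio. Its version and background setting and the genome build are unknown here (not given in the sources). The authors deposited a table of linear intensity values, 1 for each probe on each array, not normalized. A detection p-value stands beside each, per the file headers, and moves in steps of 1 in 798. The deposited processed table holds log2 values, which equal log2 of the quantile-normalized intensity to within 5e-09, with no background correction added between these tables.

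Intensities were corrected, quantile-normalized and logged with neqc (offset 16) in limma 3.58.1, R 4.3.3. Symbols came from the probe table, which names 1 gene for 23978 probes, none for 1719 and several for 0. All 3 groups entered 1 linear model (12 residual and 4.73 prior degrees of freedom). Tests were limma's moderated test, two-sided, adjusted by Benjamini and Hochberg over the 13077 kept probes. The brightest kept probe, by its mean over all arrays, stood for a gene. Methods were tested on simulated data.

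The members, the list of other calcium genes, the marker lists and the tests were chosen with earlier results of these data known. Named genes are every member, the targeted genes, up to 4 called genes of the other calcium list per comparison, and exceptions said to be so. Marker lists are given where their values move with a result. Alternatives covered normalization, background, filters, array weights, a marker covariate, single arrays left out and a replicate block. Promoters came from the RefSeq table of GRCm38.p6, which holds 31 of the 45 genes. No slide, scan or batch is given for any array.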

Additional observations from a re-analysis of the deposited data

Results flagged for a closer look

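Among 111 sets of 5 values (the brightest and called member probes in each group), 11 held an array whose gap to the nearest other was above Dixon's 95% limit of 0.71 of the range, where chance gives about 1 in 20, or 5.55. Cnga3 double knockout replicate 4 was the low array in 4 of them: Cacna2d1 (7.568, others 8.38 to 8.635), Letm1 (7.055, others 8.047 to 8.326), Camk2d (7.321, others 7.814 to 7.973) and Cacnb4 (7.424, others 7.883 to 7.963). Control replicate 3 was the low array for Pcp4 (4.916, others 6.434 to 6.837) and Cacnb4 (6.65, others 7.919 to 8.387), and control replicate 4 for Camk2d (6.867, others 7.444 to 7.526).

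In the Cngb3 double knockout replicate 5 was low for Ryr3 (4.666, others 5.36 to 5.626), replicate 4 for Stim1 (8.054, others 8.294 to 8.35) and replicate 2 for the dimmer Mcu probe (4.813, others 5.609 to 5.818), while replicate 3 was high for Cacnb4 (8.246, others 7.811 to 7.929). The dimmest kept Ppp3ca probe differed between the mutants themselves, by 0.884 (limma, adjusted p = 0.0303), but it was kept only through the Cnga3 double knockout arrays and lay below the detection limit on 4 of 5 Cngb3 double knockout arrays. The brightest Ppp3ca probe differed by -0.03.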

How the results depend on the processing

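No difference of a member or other named calcium gene changed its sign where it was called in the main fit or the alternative. Uncalled ones could, such as Cacnb2 (-0.15 to 0.08 in the Cnga3 double knockout over the fits without 1 array). Cngb3, which differed by 0.01 in the Cnga3 double knockout, was called lower there by -0.78 without control replicates 1 and 3 and Cnga3 double knockout replicate 4 (adjusted p = 0.0466, limma). The other named genes and the targeted ones kept their call in 261 cases and lost it in 50. Followed over all settings, a called member probe kept its call in 112 cases and lost it in 39, and an uncalled one was called in 47 cases and not in 2658. These tallies count the deposited values and no background correction separately, though both gave the same fit. They also include fits that left out an array of a group not compared, and those of member probes include the dimmest Ppp3ca probe. In the Cnga3 double knockout the count of called members, 2, became 4 rises with array weights or median centring, and 2 rises and 2 falls, 4 in all, with the deposited values, no background correction or the pigment epithelium covariate. It became 8 without control replicates 1 and 3 and Cnga3 double knockout replicate 4 (chosen after seeing the data), 1 with no filter (Mcu), 1 with detection on all 15 arrays, a fall of Cacna2d3 (-0.59, adjusted p = 0.0487) since Mcu and Pcp4 were then not tested, and 0 with only the 2 groups fitted (limma, adjusted p of Mcu 0.0509). In the Cngb3 double knockout the count of 1 became 2 with array weights, 6 without the 3 arrays, 3 without control replicates 1 and 3, and 0 with no filter or only 2 groups. Between the mutants the count of 0 became 4 with array weights and 1 with any kept probe, median centring or the covariate. The other calcium genes went from 5 to 10 (array weights), 9 (without the 3 arrays), 8 (median centring) and 1 (only 2 groups) in the Cnga3, from 3 to 6 (without the 3 arrays) in the Cngb3 double knockout, and from 2 to 7 (array weights) and 6 (covariate) between them. Called probes went from 1051 to 1880 (array weights), 1874 (without the 3 arrays), 323 (only 2 groups) and 1733 (covariate) in the Cnga3 double knockout. They went from 351 to 1054 (array weights), 1698 (without the 3 arrays), 849 (without controls 1 and 3) and 230 (only 2 groups) in the Cngb3 double knockout. Between the mutants they went from 53 to 1170, 208 and 94 in the first 3 of these settings and to 201 (median centring) and 756 (covariate). The cause was not tested.

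Leaving out 1 array at a time gave 1 to 4 called members in the Cnga3 double knockout, 0 to 2 in the Cngb3 double knockout and 0 between them. The other calcium genes gave 3 to 7, 2 to 4 and 1 to 3, and called probes 551 to 1229, 130 to 828 and 19 to 180. The labels number the replicates alike in the groups, and nothing there says that a number pairs animals. Of 15 same-numbered pairs 4 had deviations correlated above 0.1 (from -0.107 to 0.28), and in 4 the own number was the best match. With the replicate block, called members were 2, 0 and 0, called probes 1107, 387 and 122, and Orai1 had an adjusted p of 0.051 in the Cngb3 double knockout (limma).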
